A study of Mus musculus with 12 samples.

Results

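The 6 genes described here are Cd74, H2-Aa, H2-Ab1, H2-Eb1, H2-DMa and Ciita, the MHC class II genes and Cd74 of lingual trigeminal ganglion (TG) neurons. They were taken by symbol, 6 of 22609 gene symbols in the count files, and they had been chosen from their measured levels in these same libraries, so their levels and differences are given as a description without a test. Of the 6 genes, 5 passed the filter on low counts that set the 13835 genes tested, and Ciita did not. Bulk RNA of flow-sorted TG neurons, labeled from the tongue with the fluorescent tracer WGA-488, was sequenced in 12 libraries, 3 for each of the groups MN and FN, normal males and normal females, and MT and FT, males and females with a tongue tumor. All mice were adult Balb/c athymic nude animals, a strain without a thymus that lacks most T cells. Tumor-bearing mice received HSC3 cells, a human oral squamous cell carcinoma line, in the tongue. The sample labels state that normal mice received no cells, whereas the methods of the study name keratinocytes for the normal group, so the handling of MN and FN is uncertain. The tracer was given on day 13 (0.5% in the labels) and ganglia were taken on day 15. Each library pooled 4 TGs, from 2 animals in MN and FN and from 4 animals in MT and FT, where the ipsilateral ganglion alone was used. HSC3 is 1 line, so MT and FT stand for 1 tumor model, and each tumor library mixes 4 animals.

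MHC class II molecules are pairs of an alpha and a beta chain that carry peptides from endosomes to the cell surface and show them to CD4+ T cells. In mice H2-Aa and H2-Ab1 encode the chains of the I-A molecule, H2-Eb1 encodes the beta chain of I-E, Cd74 encodes the invariant chain that fills the groove of new class II molecules, H2-DMa encodes a chain of the peptide editor H2-DM, and Ciita is the coactivator that switches the set on. Class II is a hallmark of dendritic cells, B cells and macrophages, and macrophages reside in sensory ganglia beside neurons and satellite glia.

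In mm9, the genome build of the counts, with GENCODE release M1, H2-DMa lies on the plus strand at chr17:34272127-34276046, H2-Ab1 on the plus strand at chr17:34400154-34406363, H2-Aa on the minus strand at chr17:34406276-34424772 and H2-Eb1 on the plus strand at chr17:34442828-34453144. Ciita lies on the plus strand at chr16:10480237-10527657, and all 6 genes are annotated as protein coding. H2-Aa and H2-Ab1 overlap by 88 bases on opposite strands. The SMART-seq2 libraries do not mark strand, so reads from that overlap cannot be assigned to either gene. The reference is built on C57BL/6 mice, and the H2 genes differ between that strain and Balb/c, so reads over variable stretches may have been lost, and the size of that loss was not tested.

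The promoter table held 3 of the 6 genes. Windows before their listed start sites are shown because class II genes share short promoter boxes, bound by the RFX, CREB and NF-Y factors. The levels of these genes are also compared across libraries. Each window covers the 110 bases from 140 to 31 before the start site, 5′ to 3′ on the strand of the gene, from RefSeq on GRCm38.p6, with H2-DMb1, the partner chain of H2-DMa, added from the pathway list. Capitals mark matches to TGATTGG, which holds the inverted CCAAT letters, TGATGATG or TGACGTCA. The 3 strings were chosen after the windows had been read, and both strands were searched.
H2-Aa (chr17:34287854-34287963, minus strand): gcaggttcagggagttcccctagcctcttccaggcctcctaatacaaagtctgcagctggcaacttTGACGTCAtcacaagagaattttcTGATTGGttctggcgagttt
H2-Eb1 (chr17:34305727-34305836, plus strand): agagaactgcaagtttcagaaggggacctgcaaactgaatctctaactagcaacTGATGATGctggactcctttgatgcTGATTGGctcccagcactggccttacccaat
H2-DMb1 (chr17:34153051-34153160, plus strand): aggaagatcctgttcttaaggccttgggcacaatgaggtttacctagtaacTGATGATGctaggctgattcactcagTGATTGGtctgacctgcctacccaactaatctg
H2-DMa (chr17:34122692-34122801, plus strand): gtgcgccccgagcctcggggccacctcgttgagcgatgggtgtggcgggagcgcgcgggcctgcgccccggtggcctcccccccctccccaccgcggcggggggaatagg

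TGATTGG began 50 bases before the start site in H2-Aa, 61 before it in H2-Eb1 and 63 before it in H2-DMb1. It was present in this window of 4.65% of 32851 promoters. TGATGATG began 86 bases before the start in H2-Eb1 and 89 before it in H2-DMb1, against 0.618% of windows, and TGACGTCA began 74 bases before the start in H2-Aa, against 0.922% of windows. None of the 3 strings was found in the window of H2-DMa or in that of its second listed start site. Both sites lie well upstream of the H2-DMa gene as placed in mm9. The gene starts at 34272127 there and H2-DMb1 at 34290017, a shorter distance than between the windows of these genes. The sequence just before the H2-DMa gene was therefore not searched. A match is a description of letters and not a bound site.

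Each library held 4592891 to 8922011 reads on genes. FN replicate 2, FT replicate 2 and FT replicate 3 stood apart from the other 9 libraries: 56.0%, 68.4% and 52.6% of their reads mapped to several places, against 43.0% to 45.5%, and their highest rank correlation with any of the 9 was 0.850, 0.811 and 0.908, where the lowest among the 9 was 0.971. Values are therefore also given for 10 libraries, without FN replicate 2 and FT replicate 2, and for 9, without FT replicate 3 as well. Levels are CPM, read counts scaled to the total on genes, and 3 counts, the floor of detection, equal 0.336 to 0.653 CPM. The sensory neuron markers Tubb3, Uchl1 and Prph, at 1564 to 6006 CPM, were high in every library. In bulk RNA, fewer cells of a type cannot be told apart from less RNA per cell.

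The classical chain genes were low in normal males and higher in females, and 1 of the 3 MT libraries, replicate 3, was far above the other MT libraries. H2-Aa, the I-A alpha chain gene, was at 3.80, 3.25 and 4.02 CPM in MN replicates 1 to 3. In MT it was at 2.77 and 3.20 CPM in replicates 1 and 2 and at 31.9 CPM in replicate 3. Thus 2 of the MT libraries lay below all of MN and MT replicate 3 lay 9.97-fold above the higher of them. H2-Aa was at 14.2, 10.6 and 6.03 CPM in FN and at 12.6, 14.6 and 36.3 CPM in FT. Every female library was above every library of MN, and FN and FT overlapped. Group means were 3.69 ± 0.394 CPM in MN, 12.6 ± 16.7 in MT, 10.3 ± 4.10 in FN and 21.2 ± 13.1 in FT (SD, n = 3 each).

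H2-Ab1, the I-A beta chain gene, gave the same picture from a higher floor. It was at 8.44, 8.29 and 9.07 CPM in MN and at 7.80, 6.67 and 35.6 CPM in MT. MT replicate 3 was again the exception, 4.56-fold above the higher of the other MT libraries. In females it was at 18.9, 13.3 and 9.73 CPM in FN and at 19.6, 15.7 and 52.1 CPM in FT. The lowest FN library was close to the highest MN library, and FT replicate 3 was 2.66-fold above the next FT library.

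H2-Eb1, the I-E beta chain gene, varied most among the chain genes. Its levels in MN were 4.36, 1.79 and 1.38 CPM and in MT 1.13, 1.11 and 29.4 CPM, with MT replicate 3 at 26.0-fold of the next MT library. FN had 10.1, 4.70 and 2.47 CPM and FT had 13.2, 5.44 and 32.5 CPM. FN overlapped MN through FN replicate 3, and FN overlapped FT. Only 8 and 9 reads lay behind the values of MT replicates 2 and 1.

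Cd74, the invariant chain gene, had the widest range of the chain genes and Cd74. It was at 8.86, 2.69 and 3.67 CPM in MN, which were 63, 24 and 32 reads. It was at 2.64 and 3.61 CPM in MT replicates 1 and 2 and at 88.5 CPM, or 717 reads, in MT replicate 3, which per length was also the highest level of any of the 6 genes in any library. FN had 35.8, 23.2 and 14.4 CPM and FT had 35.0, 29.2 and 67.3 CPM. All female libraries were above all of MN and above MT replicates 1 and 2, and below MT replicate 3. The means were 5.07 ± 3.31 CPM in MN, 31.6 ± 49.3 in MT, 24.5 ± 10.8 in FN and 43.8 ± 20.6 in FT (SD, n = 3 each), so the SD exceeded the mean in MT.

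**Figure D1:**
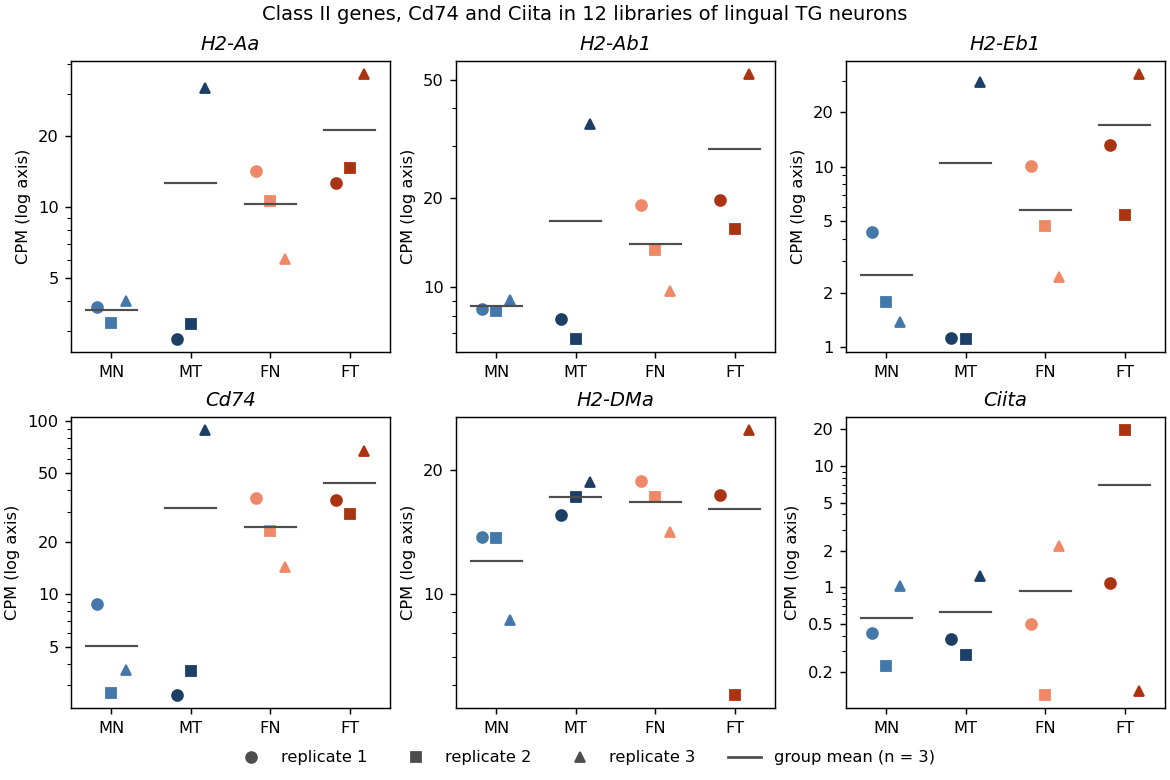
CPM of each of the 6 genes on a log axis (vertical) in the groups MN, MT, FN and FT (horizontal), where points are libraries, symbols mark the replicate number and lines are group means (n = 3). In H2-Aa, H2-Ab1, H2-Eb1 and Cd74 a single MT library, replicate 3, sits at 29.4 to 88.5 CPM and the other MT libraries at 1.11 to 7.80 CPM, whereas H2-DMa spans a narrower range and Ciita is high in FT replicate 2 alone.

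H2-DMa, a chain of the peptide editor, spanned a narrower range of CPM than the chain genes. Its levels were 13.8, 13.7 and 8.61 CPM in MN, 15.6, 17.2 and 18.8 CPM in MT, 18.9, 17.2 and 14.1 CPM in FN and 17.4, 5.66 and 25.1 CPM in FT. MN was the lowest group, every library of MT and FN was above every library of MN, and FT enclosed all other libraries, with FT replicate 2 lowest and FT replicate 3 highest. Over 12 libraries its log2 CPM had a Pearson r of 0.29 to 0.43 with each chain gene and Cd74, whereas these 4 genes had r of 0.90 to 0.97 among themselves. The r of H2-DMa was 0.67 to 0.70 over 10 libraries and 0.51 to 0.57 over 9, so it depended on the libraries that stand apart. Each r is a description of libraries that share groups and depth.

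Ciita, the coactivator, was near the floor of detection in most libraries. It had 3 counts or fewer in 6 of 12 libraries, and its levels were 0.422, 0.224 and 1.03 CPM in MN, 0.377, 0.278 and 1.23 CPM in MT and 0.503, 0.130 and 2.19 CPM in FN. In FT it was at 1.10 CPM in replicate 1, at 19.8 CPM, or 91 reads, in replicate 2, and at 0.139 CPM, or 1 read, in replicate 3. The FT mean of 7.02 CPM therefore rested on FT replicate 2, and without it the mean was 0.618 CPM. In FT replicate 2 the chain genes and Cd74 were not at their highest, and H2-DMa was at its lowest. In MT replicate 3, where the chain genes and Cd74 were high, Ciita had 10 reads.

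RPKM, CPM per kilobase of exon, scales levels for gene length. Reads lost over variable H2 stretches may shift the order of genes, as may the exon lengths used, and neither was tested. H2-DMa was the highest of the 6 genes in MN at 7.32 ± 1.80 RPKM, followed by H2-Ab1 at 5.23 ± 0.250 and Cd74 at 3.60 ± 2.35. H2-Eb1 was at 2.11 ± 1.36, H2-Aa at 1.86 ± 0.198 and Ciita at 0.0715 ± 0.0538 RPKM (SD, n = 3). The ranges of H2-DMa and H2-Ab1 overlapped, as did those of Cd74, H2-Eb1 and H2-Aa. In FN Cd74 was first at 17.4 ± 7.64 RPKM, ahead of H2-DMa at 10.2 ± 1.47, H2-Ab1 at 8.49 ± 2.80, H2-Aa at 5.17 ± 2.06, H2-Eb1 at 4.83 ± 3.28 and Ciita at 0.120 ± 0.140 RPKM, with neighboring genes in that order overlapping as far as H2-Eb1. In FT Cd74 at 31.1 ± 14.6 RPKM was again first and H2-DMa at 9.79 ± 5.97 RPKM came after H2-Ab1, H2-Eb1 and H2-Aa, but without FT replicate 2 it was above H2-Aa, at 12.96 and 12.3 RPKM. In MT the order depended on the library: H2-DMa led in replicates 1 and 2 at 9.50 and 10.5 RPKM and Cd74 led in replicate 3 at 62.8 RPKM.

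Of the reads on H2-Aa, H2-Ab1, H2-Eb1 and Cd74, the share on Cd74 also differed between libraries. It was 34.8% (95% Wilson interval 28.2% to 42.0%) of 181 reads in MN replicate 1, 16.8% (11.5% to 23.8%) of 143 in MN replicate 2 and 20.3% (14.7% to 27.2%) of 158 in MN replicate 3. In MT it was 18.4% (12.4% to 26.5%) of 114 reads, 24.8% (17.5% to 33.8%) of 105 and 47.8% (45.3% to 50.3%) of 1501. In FN it was 45.4%, 44.8% and 44.1% of 628, 397 and 238 reads, and in FT it was 43.5%, 45.0% and 35.8% of 586, 298 and 1350 reads. H2-Ab1 took 19.2% to 33.1% in 8 libraries. It took the largest share, from 45.7% to 54.4%, in MN replicates 2 and 3 and in MT replicates 1 and 2. These libraries, which had the fewest reads on the 4 genes, thus held less Cd74 and more H2-Ab1 than the other 8. The mix did not follow the number of reads throughout. MN replicate 1, with 181 reads, and FN replicate 3, with 238, had Cd74 shares of 34.8% and 44.1%, beside 35.8% of 1350 reads in FT replicate 3. The intervals cover counting error only, since reads without molecular identifiers are not independent molecules.

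**Figure D2:**
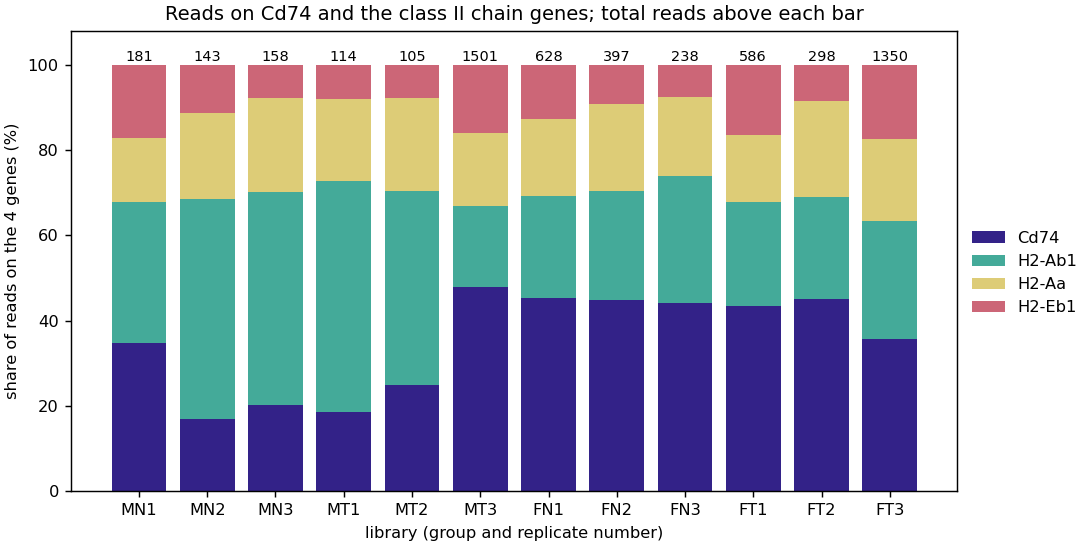
Share of the reads on Cd74, H2-Ab1, H2-Aa and H2-Eb1 that fell on each gene (vertical, %) in each library (horizontal), with the number of reads on the 4 genes above each bar. Cd74 takes 16.8% to 34.8% in MN and in MT replicates 1 and 2, and 35.8% to 47.8% in MT replicate 3 and the female libraries.

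The study asked how a tongue tumor changes lingual neurons of each sex and how the sexes differ. For these comparisons the difference is that of the group means of log2 CPM (prior count 2). In MT against MN the 6 genes had differences of 0.82 (H2-Aa), 0.51 (H2-Ab1), 0.62 (H2-Eb1), 1.08 (Cd74), 0.53 (H2-DMa) and 0.09 (Ciita), with a median of 0.58 against -0.02 over all genes tested. The pooled SD between replicates was 1.36, 0.93, 1.89, 2.02, 0.28 and 0.75 for the 6 genes, larger than the difference for all but H2-DMa. Without MT replicate 3 these became -0.28, -0.24, -0.85, -0.50, 0.47 and -0.36, and the median became -0.32. The direction of 5 of the 6 genes thus turned with that library, and H2-DMa kept it. Ciita also turned without MN replicate 2, to -0.23. In CPM, the MT mean of Cd74 was 6.23-fold of the MN mean, and 0.616-fold without MT replicate 3. H2-DMa was the 1 gene of 6 whose MT libraries were all above all MN libraries, which held for 5.8% of genes tested, and nothing is read from that count in genes chosen on these levels.

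In FT against FN the differences were 0.94 (H2-Aa), 0.89 (H2-Ab1), 1.39 (H2-Eb1), 0.83 (Cd74), -0.28 (H2-DMa) and 1.30 (Ciita), with a median of 0.92 against -0.13 over all genes tested. The pooled SD was 0.72, 0.73, 1.12, 0.64, 0.79 and 2.24, below the difference for H2-Aa, H2-Ab1, H2-Eb1 and Cd74 and above it for H2-DMa and Ciita. The FT mean was 2.06-fold of the FN mean for H2-Aa, 2.09-fold for H2-Ab1, 2.97-fold for H2-Eb1 and 1.79-fold for Cd74. Without FT replicate 3 these ratios were 1.33, 1.26, 1.62 and 1.31, and without FT replicate 2 they were 2.38, 2.57, 3.98 and 2.09. The median log2 difference was 1.14 in 10 libraries and 0.48 in 9 libraries, where FT was a single library assumed to stand for its group. None of the 6 genes had all FT libraries above all FN libraries, against 1.22% of genes tested. In 10 libraries, with 2 in each group, H2-Ab1 and H2-Eb1 had this, as had 16.5% of genes tested. Nothing is read from these counts in genes chosen on these levels. Ciita turned to -0.29 and H2-DMa to 0.33 without FT replicate 2. The study listed Cd74, H2-Aa, H2-Ab1 and H2-Eb1 among the genes raised in FT against FN, and also Ctss, Cd83 and Icam1. Its rule was a DESeq p-value under 0.05 with thresholds on RPKM and fold change, unlike the adjusted p used for pathway genes here.

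In FN against MN the chain genes and Cd74 had higher means in FN. H2-Eb1 overlapped between the groups, at 2.47 CPM in FN replicate 3 and 4.36 CPM in MN replicate 1. The differences were 1.34 (H2-Aa), 0.63 (H2-Ab1), 1.05 (H2-Eb1), 2.29 (Cd74), 0.49 (H2-DMa) and 0.26 (Ciita), with a median of 0.84 against -0.08 over all genes tested. The pooled SD was 0.44, 0.34, 0.88, 0.75, 0.31 and 1.07, below the difference for each gene but Ciita. The FN mean was 4.82-fold of the MN mean for Cd74, 2.78-fold for H2-Aa, 2.29-fold for H2-Eb1 and 1.62-fold for H2-Ab1. Without FN replicate 2 the ratios were 4.95, 2.74, 2.49 and 1.66. Ciita turned to -0.06 without MN replicate 2 and to -0.46 without FN replicate 3. H2-Aa, H2-Ab1, Cd74 and H2-DMa, 4 of the 6 genes, had all FN libraries above all MN libraries. The same held for 9.66% of the 13360 genes tested outside X and Y. Since the 6 genes were chosen on these levels, nothing is read from the count of 4.

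In FT against MT the differences were 1.46 (H2-Aa), 1.02 (H2-Ab1), 1.82 (H2-Eb1), 2.04 (Cd74), -0.33 (H2-DMa) and 1.47 (Ciita), with a median of 1.46 against -0.20 over all genes tested. The pooled SD was 1.47, 1.13, 2.01, 1.98, 0.78 and 2.11. Without MT replicate 3 H2-Aa, H2-Ab1, H2-Eb1 and Cd74 stood at 2.56, 1.77, 3.29 and 3.62, and the median at 2.24. As a ratio of mean CPM, FT was 1.39-fold of MT for Cd74, 14.0-fold without MT replicate 3 and 1.02-fold without FT replicate 3. Without FT replicate 3 H2-Eb1 was at 0.883-fold by that measure, and without FT replicate 2 the log2 difference of H2-DMa turned to 0.28 and that of Ciita to -0.12. None of the 6 genes had all FT libraries above all MT libraries, against 8.03% of genes tested outside X and Y. The count was also 0 in the sets of 10 and 9 libraries. The median of all genes depended on the scaling: with DESeq2 size factors it was -0.018 in FT against FN and -0.004 in FT against MT, and no gene of the 6 changed direction with that scaling. MN is shared by the comparisons MT against MN and FN against MN, and FT, FN and MT are likewise shared, so the comparisons are not independent of each other.

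**Figure D3:**
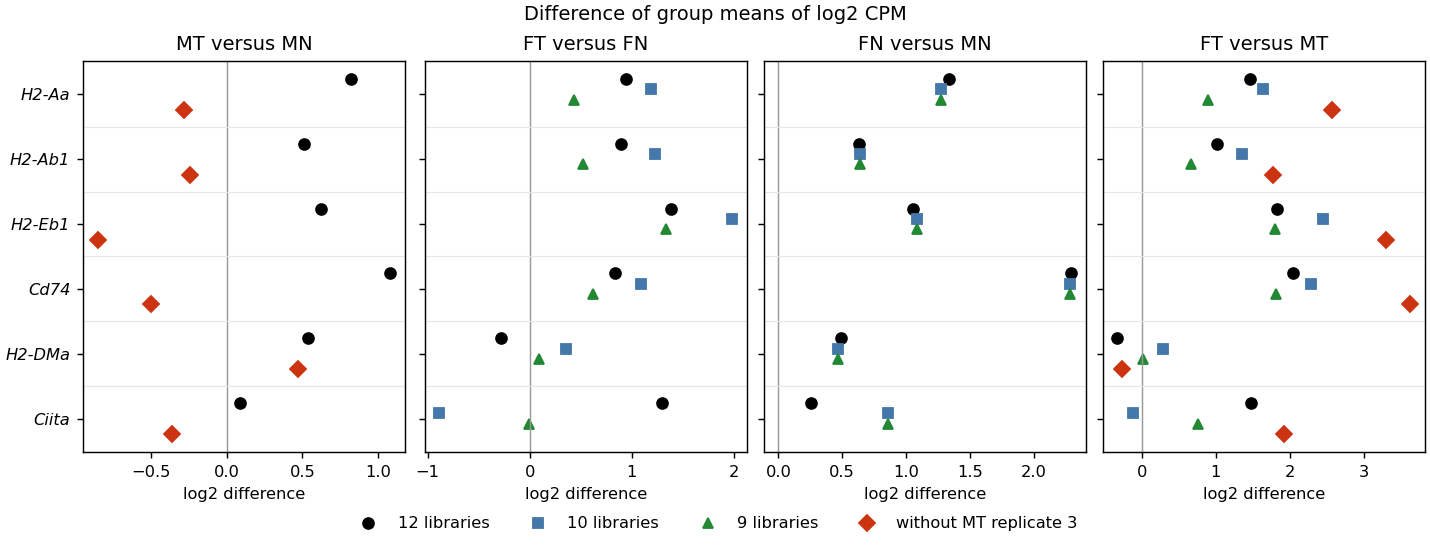
Difference of the group means of log2 CPM (horizontal) of each gene (vertical) in the comparisons MT versus MN, FT versus FN, FN versus MN and FT versus MT, for 12, 10 and 9 libraries and without MT replicate 3. In MT versus MN, H2-Aa, H2-Ab1, H2-Eb1 and Cd74 move from 0.51 to 1.08 with 12 libraries to -0.85 to -0.24 without MT replicate 3, while in FN versus MN, where the 10 and the 9 libraries are the same ones, leaving out FN replicate 2 moves Ciita most, from 0.26 to 0.86.

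For genes of the wider class II pathway, edgeR's quasi-likelihood fit was run over the whole table and p-values were adjusted by Benjamini-Hochberg. The list held 36 genes, of which 35 were in the files and 29 passed the filter. It was chosen with earlier results of these data known, so nothing is read from its counts of genes called. The shares of all genes given beside them count both directions. None of the 29 had an adjusted p under 0.05 in MT against MN, FT against FN, FN against MN, FT against MT or the interaction of sex and tumor, and the same test called 0% of all genes in each of the 5. DESeq2 called 0, 0, 1, 0 and 0 of the 29, and limma-voom with sample quality weights called 0, 0, 5, 0 and 0. At an unadjusted p under 0.05 edgeR gave 1 pathway gene in MT against MN (0.426% of all genes), 0 in FT against FN (3.82%), 4 in FN against MN (5.57%), 1 in FT against MT (12.1%) and 0 for the interaction (1.47%), all with a positive log2 difference. The median log2 difference of the 29 genes was 0.01, -0.20, 0.18 and 0.03 in the first 4 comparisons, beside -0.02, -0.13, -0.08 and -0.20 over all genes tested.

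Among the other chain genes, H2-Ea-ps tracked H2-Eb1. It is annotated as a pseudogene at chr17:34478897-34481589 in mm9, but is the I-E alpha chain gene, which C57BL/6 mice do not express and Balb/c mice do. It was at 3.80, 1.12 and 0.230 CPM in MN, at 0.755, 0.972 and 20.9 CPM in MT, at 7.29, 3.13 and 2.60 CPM in FN and at 8.92, 1.52 and 32.1 CPM in FT. MT replicate 3 was again far above the other MT libraries, and FT replicate 3 the highest of all. Its log2 difference in MT against MN was 2.13 ± 1.22 (SE), with an edgeR adjusted p of 1.00, and 0.719 to 1.00 over 20 alternatives that gave differences of -0.91 to 3.41. H2-Eb2 had no read in any library.

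Of the peptide loading genes, H2-DMb1, the beta partner of H2-DMa, was at 0.442 to 3.87 RPKM and H2-DMb2 at 0.0655 to 0.735 RPKM, whereas H2-DMa was at 3.45 to 15.3 RPKM. Per length, H2-DMa was above both beta chain genes in every library. H2-DMb1 was highest in FT replicate 3 at 5.72 CPM and in MT replicate 3 at 3.09 CPM, and at 0.653 to 2.14 CPM elsewhere. The H2-DM inhibitor genes were at or near 0: H2-Oa had no read in any library and H2-Ob had at most 3.

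Of the endosomal enzymes, Ctss, cathepsin S, which trims the invariant chain in antigen-presenting cells, was at 2.81, 2.58 and 2.52 CPM in MN and at 2.52, 5.14 and 38.6 CPM in MT. FN had 27.4, 18.4 and 12.2 CPM and FT had 23.3, 13.1 and 53.4 CPM, so the low and high libraries were those of Cd74. Its log2 difference was 2.97 ± 0.824 (SE) in FN against MN, with an edgeR adjusted p of 0.809 and 0.00394 to 1.00 over 21 alternatives, the lowest from limma-voom. In MT against MN it was 2.52 ± 0.813 (SE), with an adjusted p of 1.00 and 0.429 to 1.00 over 21 alternatives, and it was 0.57 without MT replicate 3. Ctsh, cathepsin H, was at 1.12 to 3.09 CPM in MN and 4.66 to 12.3 CPM in FN, a log2 difference of 2.19 ± 0.873 (SE) with an edgeR adjusted p of 0.809 and 0.0233 to 1.00 over 21 alternatives. Ctsb and Ctsd, lysosomal cathepsins of most cells, were at 1411 to 3212 and 637 to 2166 CPM, and their log2 differences lay between -0.24 and 0.10.

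The enhanceosome is the complex that carries Ciita on class II promoters. Of its 7 genes, 6 had a positive edgeR log2 difference in FN against MN and 3 in MT against MN. In FT against FN 2 had one, and in FT against MT 5. By log2 CPM on library totals, another measure, 44.6%, 46.5%, 38.3% and 39.0% of all genes tested had one. The median of all genes was then -0.08, -0.02, -0.13 and -0.20. With the TMM scaling that edgeR used it was 0.01, -0.001, -0.06 and -0.05, so these shares are not a like background for the counts. Nfyc, an NF-Y subunit, was at 4.36 to 5.60 CPM in MN and 7.44 to 10.7 CPM in FN, a log2 difference of 0.94 ± 0.390 (SE) with an edgeR adjusted p of 0.809 and 0.0154 to 1.00 over 21 alternatives. Nfya, the subunit that contacts CCAAT, had a log2 difference of 1.70 ± 0.690 (SE) in FT against MT, with an edgeR adjusted p of 0.355 and 0.0553 to 0.951 over 20 alternatives. It was at 0.686, 3.70 and 2.51 CPM in FT, so the difference rested on FT replicates 2 and 3, and it was -0.29 in 9 libraries. Rfxank and Nfyb, the most abundant of the 7, were at 61.0 to 147 and 17.8 to 49.9 CPM.

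The 8 genes of interferon-gamma signaling to Ciita had log2 differences of -0.26 to 0.48 in MT against MN, -0.58 to 0.27 in FT against FN, -0.33 to 0.89 in FN against MN and -0.98 to 0.35 in FT against MT, and 0 of 8 had an unadjusted p under 0.05 in edgeR in any of these. Jak1, a kinase that signals from the receptor, was at 148 to 572 CPM, and Ifngr2, a receptor chain, at 36.6 to 117 CPM. Of the turnover genes, March8, a ubiquitin ligase of class II, was at 6.65 to 33.3 CPM and Cd83, which opposes such ligases, was at 0.871 to 25.2 CPM. Of the T cell contact genes, Icam1, an adhesion ligand, was at 2.61 to 74.3 CPM. Cd86, a costimulator, was at 0.562, 0.224 and 0 CPM in MN and at 3.52, 1.96 and 0.822 CPM in FN, a log2 difference of 3.09 ± 1.15 (SE) with an edgeR adjusted p of 0.809 and 0.0271 to 1.00 over 20 alternatives.

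**Figure D4:**
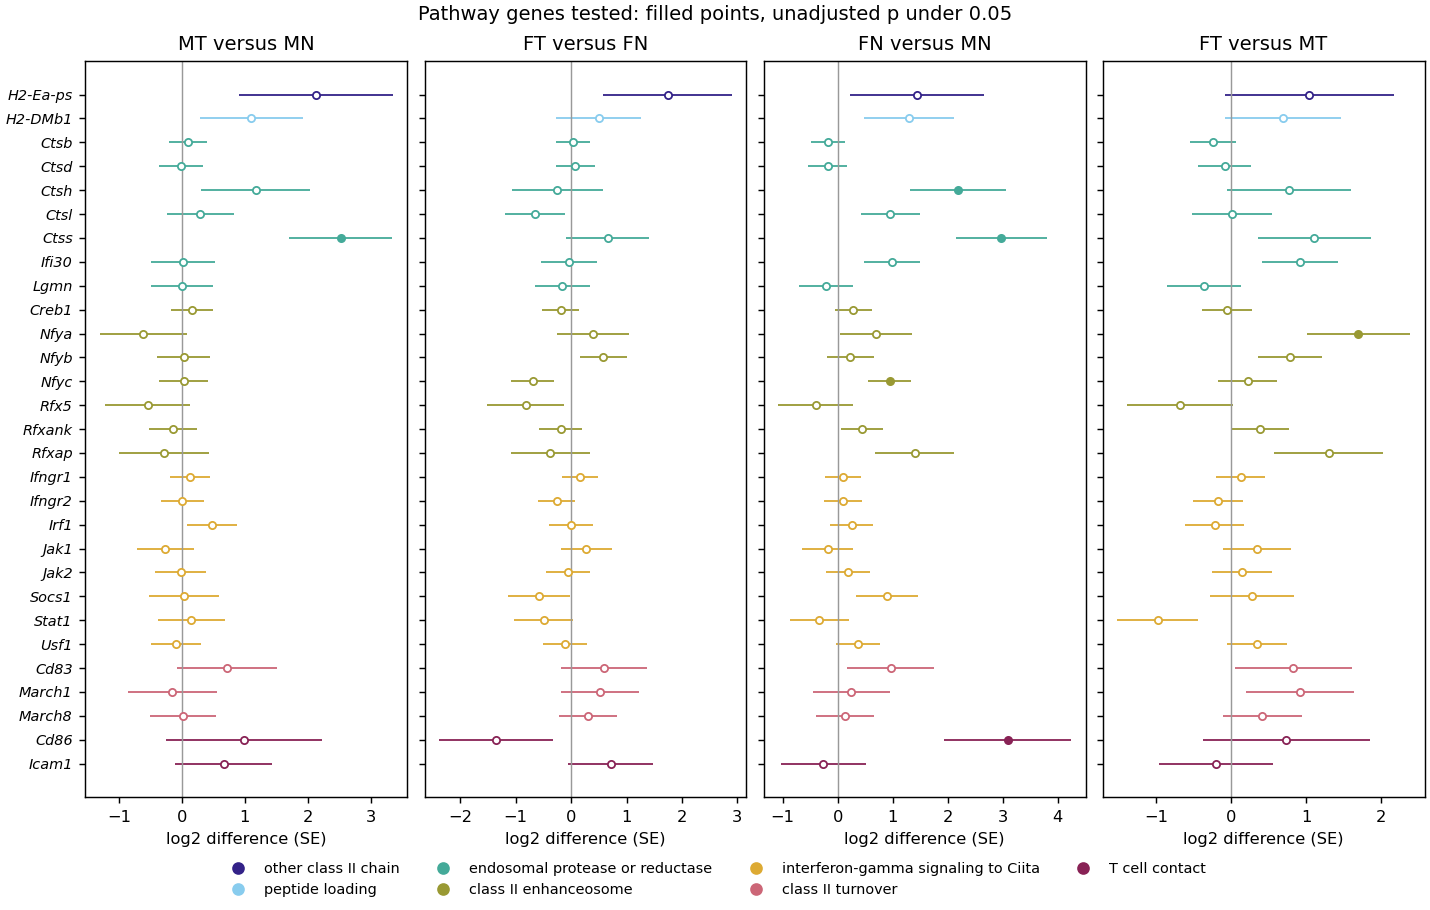
Log2 difference from edgeR (horizontal, bars are SE) of the 29 pathway genes tested (vertical, colored by role) in MT versus MN, FT versus FN, FN versus MN and FT versus MT. Filled points have an unadjusted p under 0.05, 1, 0, 4 and 1 genes in that order, and Ctss at 2.52 in MT versus MN and 2.97 in FN versus MN stands furthest right among the enzymes.

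The genes most like the class II set were found by Pearson r of log2 CPM with the mean of H2-Aa, H2-Ab1, H2-Eb1 and Cd74. Over 12 libraries the 10 highest were Ctss (0.938), Sh3glb1 (0.935), Ms4a6c (0.927), Ccrl2 (0.919), C1qa (0.914), H2-Ea-ps (0.913), C1qc (0.913), Lyz2 (0.901), Cxcl16 (0.901) and 2810055G20Rik (0.896). Over the 9 libraries they were Akna (0.990), Shprh (0.980), Ccr1 (0.976), Aifm2 (0.968), Siglec1 (0.964), Ctsh (0.962), C1ra (0.959), Uxs1 (0.956), Paf1 (0.950) and H2-K1 (0.942), and 0 genes were in both lists. Genes of the first list kept a like r over the 9 libraries where it was computed, with Ctss at 0.924, C1qa at 0.904 and H2-Ea-ps at 0.940. Of the first list, Ctss, C1qa, C1qc, Lyz2 and Ms4a6c are known from macrophages. The ranking thus changed with the 3 libraries that stand apart more than the r of Ctss, C1qa and H2-Ea-ps did. For the other genes of the first list the r over the 9 libraries is not given here.

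Markers of other cell types were read beside the class II level, because sorted neurons can carry other ganglion cells. The summed level of H2-Aa, H2-Ab1, H2-Eb1 and Cd74 was 25.4, 16.03 and 18.1 CPM in MN, 14.3, 14.6 and 185 CPM in MT, 78.9, 51.8 and 32.6 CPM in FN and 80.4, 64.9 and 188 CPM in FT. The complement genes C1qa, C1qb and C1qc, made by macrophages, summed to 13.6, 8.63 and 7.11 CPM in MN, 3.65, 7.36 and 91.5 CPM in MT, 122, 88.9 and 56.8 CPM in FN and 106, 57.5 and 203 CPM in FT. The same 5 libraries, those of MN and MT replicates 1 and 2, were lowest in both. The 20 macrophage markers, none of them at 0 in all libraries, summed to 65.7 to 79.3 CPM in MN, 57.2 to 338 in MT, 224 to 475 in FN and 276 to 612 in FT, and 13 of 20 had an unadjusted p under 0.05 in FN against MN with a positive difference (5.57% of all genes in either direction), 0 of them after adjustment in edgeR. The list was chosen with earlier results of these data known, and the study had reported Csf1r, C1qa and C1qc as higher in FN. Nothing is therefore read from the count of 13. The part of macrophage RNA in the class II levels was not tested.

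Class II reads per C1q read, a ratio formed after the values were seen, were higher in male libraries. The ratio was 1.87, 1.86 and 2.55 in MN, 3.93, 1.98 and 2.03 in MT, 0.647, 0.583 and 0.573 in FN and 0.758, 1.13 and 0.929 in FT. All 6 male libraries, MT replicate 3 included, were above all 6 female libraries. The highest ratio, in MT replicate 1, rests on the lowest C1q level, 3.65 CPM. The split also depends on the choice of C1q. Against the summed 20 macrophage markers, FT replicate 3, with 188 CPM of class II beside 612 CPM, was above MN replicate 2, with 16.03 beside 65.7 CPM. In MT replicate 3 class II was as high as in FT replicate 3, at 185 and 188 CPM, whereas C1q was at 91.5 and 203 CPM. Csf1r, a macrophage receptor gene, was at 28.0 CPM in MT replicate 3 and at 1.96, 6.31 and 7.67 CPM in FN replicate 2, FT replicate 2 and FT replicate 3, the libraries that stand apart, where C1q was at 88.9, 57.5 and 203 CPM.

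B and T cells had little trace in these libraries. Of 10 B cell markers, Pax5, Fcrla and Pou2af1 had no read in any of the 12 libraries and Cd22 had at most 3, and the list summed to 2.14 to 5.30 CPM except for 13.5 CPM in FT replicate 2, the library with high Ciita. Cd79a and Cd79b reached 1.31 and 2.40 CPM there. Of 10 T cell markers, Cd3e, Cd3g and Trat1 had no read and Cd3d, Cd8a and Cd5 at most 3, with sums of 3.16 to 6.53 CPM. The dendritic cell list summed to 7.44 to 32.4 CPM. The mean of its 3 tested markers had a Pearson r with the mean of the 4 class II genes of -0.16 over 12 libraries. It was 0.73 over the 9 without those that stand apart, given as a description of libraries that share groups. Single markers of the list went different ways over the 9, with Flt3 at -0.72, Zbtb46 at 0.64 and Itgax at 0.17. Xcr1 had at most 3 reads, Itgax, Flt3 and Zbtb46 reached 2.18, 14.6 and 17.7 CPM, and the 3 libraries that stand apart were the lowest, at 7.44 to 11.7 CPM. In MT replicate 3 the list was at 26.8 CPM, against 22.5 and 25.7 CPM in the other MT libraries.

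Other lists moved in part with class II. The neutrophil list, with S100a8 and S100a9, summed to 0.562 to 25.9 CPM in MN, 6.29 to 33.6 in MT, 20.3 to 78.5 in FN and 72.4 to 195 in FT. Satellite glia markers, with Fabp7, Glul and Kcnj10, summed to 3727 to 5320 CPM in males and 6988 to 18252 in females, Schwann cell markers, with Mbp and Pmp22, to 1595 to 4058 CPM, and endothelial markers, with Pecam1, Cdh5 and Flt1, to 229 to 1405 CPM. The sensory neuron list was at 19253 to 32894 CPM in all libraries. In MT replicate 3 satellite glia, Schwann cell and endothelial lists were at 5261, 2773 and 1253 CPM, each the highest of the MT libraries, and the neuron list, at 25588 CPM, was the lowest of them. The part of these cells in the class II levels was not tested.

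**Figure D5:**
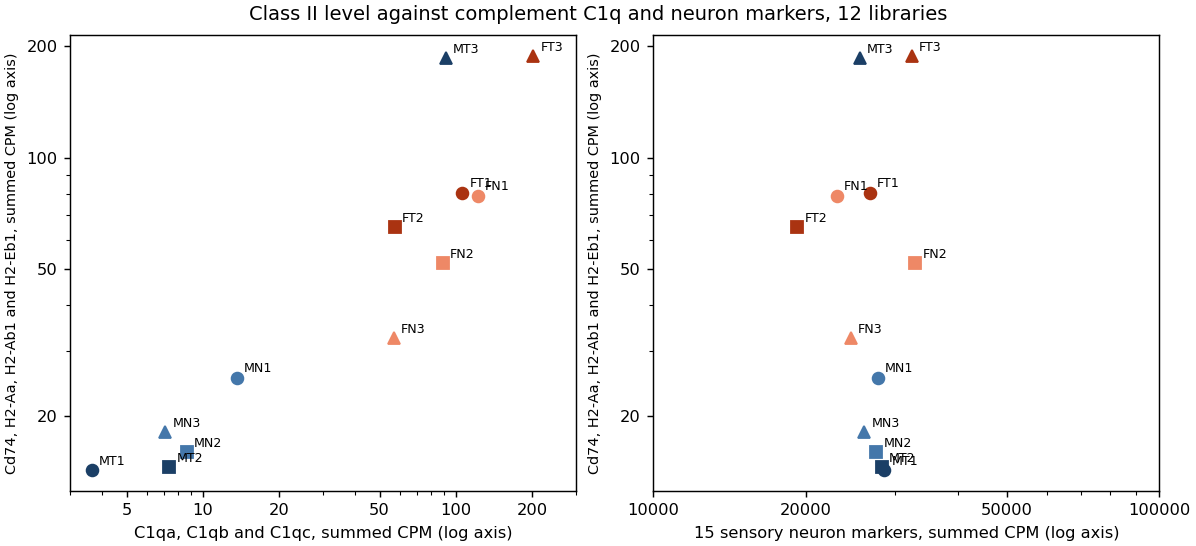
Summed CPM of Cd74, H2-Aa, H2-Ab1 and H2-Eb1 (vertical, log axis) against summed CPM of C1qa, C1qb and C1qc (left) and of 15 sensory neuron markers (right, both log axes), 1 point per library labelled by group and replicate number. MT replicate 3 sits at 185 CPM of class II with 91.5 CPM of C1q, apart from MT replicates 1 and 2 at 14.3 and 14.6 CPM, while the neuron markers lie between 19253 and 32894 CPM.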

How the data were processed

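The authors processed base calls with CASAVA 1.8.2, aligned reads to mm9 with TopHat2, used SAMtools and counted reads on genes with HTSeq, per the labels and the methods of the study, and deposited whole-number counts per gene symbol and library without normalization. The strand setting was not given in the sources used here. Rows of reads on no gene, 76.3% to 88.8% of all reads, were left out. CPM used the sum over gene rows, and RPKM used exon lengths of GENCODE M1, which matched 21627 of 22609 symbols. Log2 CPM used a prior count of 2. The members and lists were chosen with earlier results of these data known, so members carry no p-value. Pathway and marker genes were tested with edgeR 4.0.16 in R 4.3.3 (filterByExpr with a minimum count of 10 and total of 15, TMM, 4 groups of 3 libraries, quasi-likelihood test, Benjamini-Hochberg adjustment at 0.05), with sex comparisons adjusted over the 13360 genes outside X and Y. The fits were tested on simulated counts. Named genes were the 6 members, pathway genes past a threshold, the 2 most abundant of each pathway role, markers of each cell type (the first 3, of which some are not reported here) and the 10 genes most alike. Further marker and pathway genes (H2-DMb1, H2-DMb2, H2-Oa, H2-Ob, H2-Eb2, C1qc and markers with at most 3 reads among them) were named after their values were seen. Alternatives used DESeq2 1.42.0, limma 3.58.1, other scalings, filters, prior counts, sets of libraries and a replicate block. Libraries pool separate animals, but nothing states separate sorts, so p-values measure the spread between these pools.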

Additional observations from a re-analysis of the deposited data

How the results depend on the processing

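The levels of the 6 genes were limited by depth, with as few as 8 reads on H2-Eb1 and 1 on Ciita in a library, and 3 libraries per group limited every difference. Of 300 values of single members under the alternatives, 19 took the other sign, all of them when a library was left out. A comparison with the SD between replicates says little here, since leaving out 1 of 3 libraries can hardly move a mean by 1 SD and the SD is raised by MT replicate 3 and, for Ciita, by FT replicate 2. The median of the 6 ranged from -0.32 to 1.28 in MT against MN, 0.48 to 1.16 in FT against FN, 0.48 to 1.19 in FN against MN and 0.70 to 2.24 in FT against MT over the alternatives. The count of pathway genes with an adjusted p under 0.05 in FN against MN was 0 in edgeR, 1 in DESeq2 (Ctss) and 5 in limma-voom (Ctss, Ctsh, Nfyc, Cd83 and Cd86). It was 0 in the other 19 of 21 alternatives, and 0 in every alternative for the other comparisons and the interaction of sex and tumor. At an unadjusted p under 0.05 the pathway count ran from 0 to 5 in MT against MN, 0 to 3 in FT against FN, 1 to 11 in FN against MN, 0 to 6 in FT against MT and 0 to 1 for the interaction. Over all genes edgeR called 0 in each comparison with 12 libraries, DESeq2 called 2, 0, 20 and 246 in MT against MN, FT against FN, FN against MN and FT against MT, and limma-voom called 47, 0, 800 and 0. With other libraries edgeR called 755 in FT against MT without FT replicate 1, 1 in FN against MN without FN replicate 1, 3, 54 and 1 in MT against MN, FN against MN and FT against MT over 9 libraries, and 6 in MT against MN from these groups alone. The cause was not tested.

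No pairing by replicate number was assumed. Over 18 same-numbered pairs the correlation of deviations from the group means ran from -0.36 to 0.57, and 5 exceeded 0.1. These values cannot settle whether the numbers pair samples. With a replicate block, edgeR gave 0 pathway genes with an adjusted p under 0.05 in each comparison and 1, 0, 3 and 1 with an unadjusted p under 0.05 in MT against MN, FT against FN, FN against MN and FT against MT, against 1, 0, 4 and 1 without it.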
